A study of Mus musculus with 11 samples.

Results

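The 9 intermediate filament genes examined here are Gfap, Vim, Nes, Synm, Nefl, Nefm, Ina, Lmna and Lmnb1. They were picked by symbol from a polyA RNA-seq table of 37991 mouse genes. All 9 were found, each in 1 row, and 7 of them were among the 13342 genes that passed the filter of at least 1 CPM (counts per 1000000 reads) in at least 2 libraries and were tested; Nefl and Nefm were below it in every library. Intermediate filaments are rope-like polymers that give cells and nuclei mechanical strength, and their subunits differ between cell types far more than those of actin filaments or microtubules. In the developing cortex, neural stem cells build cytoplasmic filaments from vimentin with nestin, astrocytes add glial fibrillary acidic protein, and neurons replace these with α-internexin and the neurofilament proteins. The nuclear lamins form a separate class, in which B-type lamins are made throughout development and A-type lamins increase in many differentiated cells.

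All libraries came from neural stem cells (NSCs) of the frontal cortex of C57BL/6J embryos at E14.5, for which the labels name no mutation or transgene, and cells were plated in flasks coated with PDL/LMN. NSC libraries (n = 3) were made at day 0, from cells in the medium that keeps them dividing. The other groups were made at day 4 after the medium was exchanged: Astrocyte (n = 3) received DMEM with 1% N-2 and 1% foetal bovine serum, Neuron (n = 3) received Neurobasal medium with 2% B-27, and Oligodendrocyte (n = 2) received the Neuron medium with 30 ng/mL of the thyroid hormone T3; all 3 media held GlutaMAX. No day 4 culture in the day 0 medium is among the samples, so a change of medium and 4 days in culture cannot be told apart.

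The group names stand for the medium given and not for a purified cell type. The summed level of 9 oligodendrocyte markers was 2257 to 2418 CPM in the Neuron libraries and 2174 to 2443 CPM in the Oligodendrocyte libraries, against 408 to 526 CPM in Astrocyte and 71.4 to 79.6 CPM in NSC. The 9 astrocyte markers, Gfap not among them, summed to 7369 to 7498 CPM in Astrocyte, 6880 to 7355 CPM in Neuron, 3292 to 3708 CPM in Oligodendrocyte and 1679 to 1748 CPM in NSC. The 9 neuronal markers summed to 897 to 990 CPM in NSC and 997 to 1298 CPM in Neuron, most of it Map2, which was already at 885 ± 45 CPM (SD, n = 3) in NSC. Among the others, Dcx rose from 1.60 CPM in NSC to 148 CPM in Neuron and Elavl3 from 17.8 to 90.9 CPM, while Rbfox3, which marks mature neurons, reached 2.34 ± 0.61 CPM (SD, n = 3) there. Libraries of 1 group correlated at 0.990 to 0.999 across genes, and no library stood apart by this measure. Single genes could vary more, such as Dst, at 455 ± 167 CPM (SD, n = 3) in Neuron. Depth, estimated from the step between low values, was 49.3 to 66.2 M reads (M, 1000000) per library. Because the samples are bulk cultures, fewer cells of a type and less RNA per cell cannot be told apart.

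**Figure D1:**
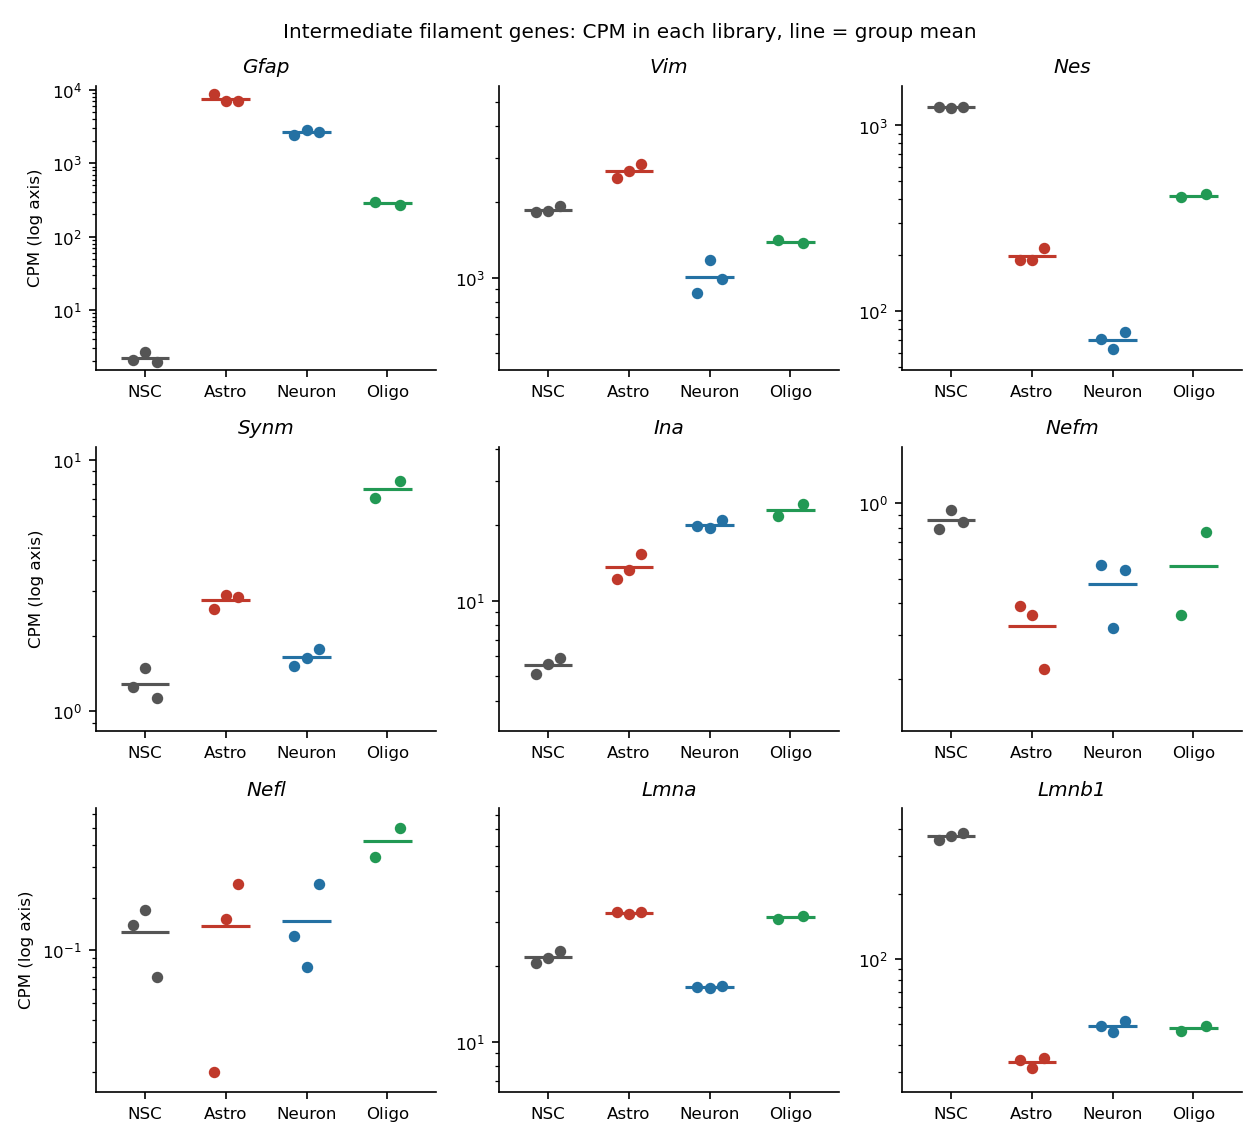
CPM of the 9 genes in each of the 11 libraries, on log axes, with 1 point per library and a bar at each group mean. Gfap runs from 1.94 to 2.63 CPM in NSC to 7030 to 8707 CPM in Astrocyte, Nes and Lmnb1 are highest in NSC, and Nefm and Nefl lie below 1 CPM in all groups.

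3 of these genes span the range of behaviour seen below, and the 250 bases before their RefSeq start sites (GRCm38.p6, written in the direction of transcription) are printed for reference. Gfap is shown because it rose most, and Nes because its fall in Neuron was the deepest of the tested members. Synm is shown because it was highest in the cultures with added T3. Capitals mark matches to the motifs searched on both strands.
Gfap, chr11:102897201-102897450, minus strand: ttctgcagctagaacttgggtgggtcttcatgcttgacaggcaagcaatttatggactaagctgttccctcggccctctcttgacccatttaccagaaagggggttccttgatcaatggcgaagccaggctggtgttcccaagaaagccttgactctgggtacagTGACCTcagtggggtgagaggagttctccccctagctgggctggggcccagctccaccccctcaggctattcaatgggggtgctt
Nes, chr3:87970843-87971092, plus strand: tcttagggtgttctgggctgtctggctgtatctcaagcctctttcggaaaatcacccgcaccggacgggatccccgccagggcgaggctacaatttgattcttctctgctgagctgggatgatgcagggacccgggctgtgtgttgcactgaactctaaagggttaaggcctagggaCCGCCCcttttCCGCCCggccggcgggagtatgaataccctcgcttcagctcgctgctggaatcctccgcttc
Synm, chr7:67759743-67759992, minus strand: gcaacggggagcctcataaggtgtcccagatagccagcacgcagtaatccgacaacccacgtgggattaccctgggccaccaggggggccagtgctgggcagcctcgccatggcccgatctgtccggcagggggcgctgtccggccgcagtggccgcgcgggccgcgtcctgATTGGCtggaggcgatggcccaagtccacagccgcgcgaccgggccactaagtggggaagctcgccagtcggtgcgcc
The Gfap window holds 1 AGGTCA, on the opposite strand at −85 to −80 from the start; these are the core letters bound by many nuclear receptors, among them thyroid hormone receptors. The Nes window holds 2 Sp1 boxes, GGGCGG on the opposite strand, at −73 and −62. In Synm a CCAAT box on the opposite strand begins at −78 and shares bases with the letters TTGGC at −77, which NFI proteins are known to bind. Such letters are common: of 32851 RefSeq windows of this length, 14.0% hold the nuclear receptor letters, 32.7% an Sp1 box, 33.8% a CCAAT box and 41.5% the NFI letters. The TATA box (TATAAA, in 12.4% of windows), the AP-1 site (TGANTCA, in 6.75%) and the STAT site (TTCNNNGAA, in 7.02%) were also searched and have no match in these 3 windows. No binding or accessibility data were used here, and a match is a description of the letters.

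Gfap and Vim encode the class III filament proteins of astrocytes and their precursors. Gfap (ENSMUSG00000020932, mm9 chromosome 11, 102748650 to 102762226) was barely detected in NSC and had the highest level per kilobase of exon of the 9 genes in Astrocyte and Neuron. In NSC it was at 2.08, 2.63 and 1.94 CPM. In Oligodendrocyte it stood at 299 and 270 CPM, in Neuron at 2449, 2828 and 2663 CPM, and in Astrocyte at 8707, 7157 and 7030 CPM. The 4 groups did not overlap, and each step in the order was larger than the spread within groups. Mean CPM was 3443 times higher in Astrocyte than in NSC, 1194 times higher in Neuron and 128 times higher in Oligodendrocyte. On the log2(CPM + 1) scale, which understates the change of a gene that starts low, the differences from NSC were 11.21 (SE 0.099), 9.69 and 6.48 (limma with Benjamini-Hochberg adjustment over all tested genes, adjusted p = 1.15e-16, 4.75e-16 and 4.20e-14). Among the media, Astrocyte exceeded Neuron by 1.52 (adjusted p = 2.79e-08), and Oligodendrocyte differed from Neuron by −3.21 (adjusted p = 8.92e-11), its mean CPM being 10.7% of the Neuron mean.

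The other astrocyte markers did not all take the order of Gfap. Aqp4, the water channel of astrocyte endfeet, did: 15.2 CPM in NSC, 85.6 in Oligodendrocyte, 763 in Neuron and 1479 in Astrocyte. Slc1a2, a glutamate transporter, was instead highest in Neuron, with means of 870 CPM there and 270 CPM in Astrocyte. Over the 9 markers, 6 were lower and 2 higher in Astrocyte than in Neuron, while 8 were lower and none higher in Oligodendrocyte than in Neuron. Of all tested genes, 22.0% were lower and 40.3% higher in the first comparison, and 23.6% lower and 43.9% higher in the second. The part of changing cell numbers in the Gfap levels was not tested.

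Vim (chromosome 2, 13495554 to 13504453) was abundant throughout, and its direction of change differed between media. Its levels were 1820, 1838 and 1930 CPM in NSC. They were 2503, 2648 and 2837 CPM in Astrocyte, 873, 1173 and 988 CPM in Neuron, and 1410 and 1370 CPM in Oligodendrocyte. Every Astrocyte library was above, and every Neuron and Oligodendrocyte library below, the NSC range. The log2 differences from NSC were 0.51 in Astrocyte (SE 0.10, adjusted p = 0.000314), −0.89 in Neuron (adjusted p = 1.72e-06) and −0.42 in Oligodendrocyte (adjusted p = 0.00356). The rise in Astrocyte was lost under quantile normalization, which gave 0.00 (adjusted p = 0.979). Astrocyte and Neuron differed directly by 1.40 (adjusted p = 6.61e-08), or 2.63 times in mean CPM, and Oligodendrocyte and Neuron by 0.47 (adjusted p = 0.00234).

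Vimentin is also a filament of mesenchymal cells. The summed level of 7 mesenchymal markers was 8.18 to 10.9 CPM in NSC, 81.0 to 89.4 CPM in Astrocyte, 38.3 to 44.9 CPM in Neuron and 19.0 to 19.1 CPM in Oligodendrocyte. That sum came from Pdgfrb and Acta2; the collagen genes Col1a1, Col1a2 and Col3a1 and the matrix genes Dcn and Lum had group means below 0.5 CPM everywhere.

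Nes and Synm encode large filament proteins that assemble with vimentin. Nes (chromosome 3, 87775000 to 87784373), the classical marker of neural stem cells, fell in all 3 media. NSC libraries held 1253, 1246 and 1255 CPM, a coefficient of variation of 0.345%. Neuron libraries held 71.0, 62.5 and 77.7 CPM, Astrocyte libraries 189, 189 and 219 CPM, and Oligodendrocyte libraries 411 and 427 CPM. The groups did not overlap, and the cultures with added T3 kept the highest level after NSC. Nes was 17.8 times lower in Neuron than in NSC, 6.30 times lower in Astrocyte and 2.99 times lower in Oligodendrocyte, with log2 differences of −4.14, −2.65 (SE 0.080) and −1.58 (SE 0.090; adjusted p = 3.55e-14, 1.57e-12 and 1.50e-09). Between the media with and without added T3 the log2 difference was 2.56 (adjusted p = 9.76e-11), a ratio of 5.95 in mean CPM.

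Cell cycle genes fell beside Nes. All 8 of 8 were lower than NSC in Astrocyte, Neuron and Oligodendrocyte, where 35.6%, 39.6% and 32.2% of all tested genes were called lower. Their summed level went from 2876 to 2931 CPM in NSC to 118 to 134 CPM in Neuron, 154 to 180 CPM in Astrocyte and 192 to 196 CPM in Oligodendrocyte. The sums stood in the same order as Nes: NSC, Oligodendrocyte, Astrocyte, Neuron. Lmnb1, described below, was also highest in NSC but took another order among the media. Its lowest mean was in Astrocyte, 33.3 CPM against 48.7 CPM in Neuron. The part of proliferation in the Nes and Lmnb1 levels was not tested.

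Synm (chromosome 7, 74875047 to 74904628) encodes synemin, which also links filaments to other parts of the cytoskeleton, and it was low in all groups. It was read at 1.25, 1.48 and 1.13 CPM in NSC, 1.52, 1.63 and 1.77 CPM in Neuron, and 2.56, 2.90 and 2.84 CPM in Astrocyte. The Oligodendrocyte libraries, at 7.07 and 8.27 CPM, were above all others, and no groups overlapped. Their mean was 5.96 times that of NSC and 4.68 times that of Neuron, with log2 differences of 1.92 (SE 0.102, adjusted p = 7.31e-10) and 1.71 (adjusted p = 1.06e-08). The Astrocyte difference from NSC was 0.72 (SE 0.092, adjusted p = 5.53e-06), and quantile normalization reduced it to 0.02 (adjusted p = 0.845). Neuron differed from NSC by 0.21 (adjusted p = 0.0480), a call at the threshold. It was lost in 10 of 19 alternatives, among them leaving out NSC replicate 1 (adjusted p = 0.111) or 3 (0.165), Neuron replicate 2 (0.0709) or 3 (0.141), or Astrocyte replicate 2 (0.0578) or 3 (0.0533), and it turned to −0.26 (adjusted p = 0.0301) under quantile normalization.

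**Figure D2:**
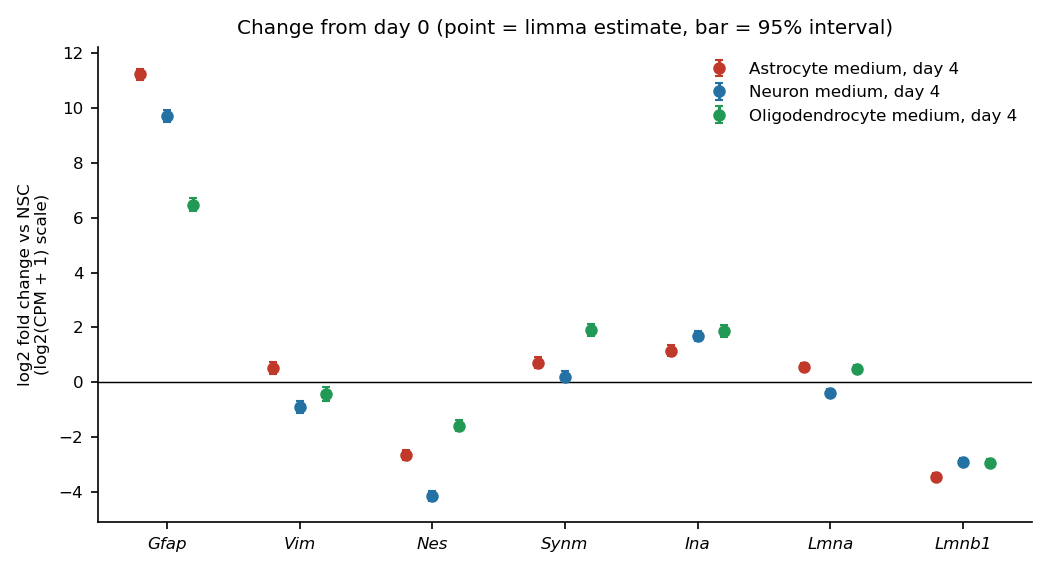
Difference from NSC on the log2(CPM + 1) scale for the 7 tested genes in Astrocyte, Neuron and Oligodendrocyte, with 95% confidence intervals from limma. Gfap lies far above 0 in all 3 media, Nes and Lmnb1 lie below 0, and Vim and Lmna have opposite signs in Astrocyte and Neuron.

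Ina, Nefm and Nefl encode α-internexin and the medium and light neurofilament proteins, the class IV filaments of neurons. Ina (chromosome 19, 47089188 to 47099817), which appears early in neuronal development, rose modestly in every medium. It went from 5.10, 5.58 and 5.90 CPM in NSC to 12.2, 13.2 and 15.3 CPM in Astrocyte. In Neuron it was at 19.9, 19.4 and 20.9 CPM, and in Oligodendrocyte at 21.7 and 24.2 CPM. The day 4 libraries were all above the NSC libraries, and Neuron and Oligodendrocyte were both above Astrocyte. Log2 differences from NSC were 1.16 (SE 0.089), 1.69 and 1.87 (SE 0.10) in Astrocyte, Neuron and Oligodendrocyte (adjusted p = 3.11e-08, 5.66e-10 and 7.51e-10). Neuron and Oligodendrocyte were not separated by the test: their log2 difference was 0.18, with a 95% interval of −0.03 to 0.40 (adjusted p = 0.120), although their libraries did not overlap.

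Nefm and Nefl stayed below 1 CPM in all 11 libraries and were not tested. Nefm read 0.79, 0.94 and 0.84 CPM in NSC, 0.57, 0.32 and 0.54 CPM in Neuron, 0.39, 0.36 and 0.22 CPM in Astrocyte, and 0.36 and 0.77 CPM in Oligodendrocyte, an estimated 13 to 54 reads per library. Every NSC library was above every day 4 library. Nefl read 0.14, 0.17 and 0.07 CPM in NSC, 0.12, 0.08 and 0.24 CPM in Neuron, 0.02, 0.15 and 0.24 CPM in Astrocyte, and 0.34 and 0.50 CPM in Oligodendrocyte, an estimated 1 to 32 reads. The first 3 groups overlapped, and the Oligodendrocyte pair lay above them. On mm9 chromosome 14 the table places Nefl (68701920 to 68707152, plus strand) wholly inside the interval it gives Nefm (68700647 to 68742903, minus strand). In the GENCODE M21 annotation, 1 of 2 Nefm coding transcripts reaches over Nefl, and 1108 exon bases of Nefm lie inside Nefl exons. The exons come to 5782 bases for Nefm and 3380 bases for Nefl. The libraries are stranded, but the strand setting of the counting is not given in the sources used here. Without it, reads in the shared stretch cannot be told apart. The annotation release of the counting is not given either, so both values are uncertain. No neurofilament subunit accompanied Ina at a comparable level: Nefh, the heavy neurofilament gene, and Prph, the peripherin gene, had group means below 0.4 CPM. Beside Ina, 8 neuronal markers were tested, of which 5 were higher and 3 lower in Astrocyte than in NSC, 6 higher and 1 lower in Neuron, and 5 higher and 3 lower in Oligodendrocyte. Over all tested genes 48.0% were higher and 35.6% lower in Astrocyte, 43.5% and 39.6% in Neuron, and 48.1% and 32.2% in Oligodendrocyte. Dcx, a microtubule protein of migrating neuroblasts, was among the risers, from 1.60 CPM in NSC to 125, 148 and 86.6 CPM in Astrocyte, Neuron and Oligodendrocyte.

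The make-up of the cytoplasmic filament transcripts was then compared across groups per length, as CPM per kilobase of annotated exon summed over the 7 cytoplasmic genes (GENCODE M21 exon lengths). This sum was 1047 ± 27.1 (SD, n = 3) in NSC, 1124 ± 114 (SD, n = 3) in Neuron, 773 ± 15.2 (SD, n = 2) in Oligodendrocyte and 3112 ± 167 (SD, n = 3) in Astrocyte. In NSC, Vim made up 80.2% and Nes 19.5% of it, and Gfap 0.0521%. In Astrocyte and Neuron the shares were 60.1% and 57.9% for Gfap, 38.7% and 40.4% for Vim, and 1.05% and 1.03% for Nes, with overlapping libraries for each, while Ina took 0.135% and 0.555% without overlap. Oligodendrocyte stayed close to NSC in its Vim share, 81.1%, with Gfap at 9.03% and Nes at 8.85%. Ina stayed below 1% in every group, with its highest mean share, 0.916%, in Oligodendrocyte. These shares rest on 1 exon length per gene and describe transcripts, not protein.

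**Figure D3:**
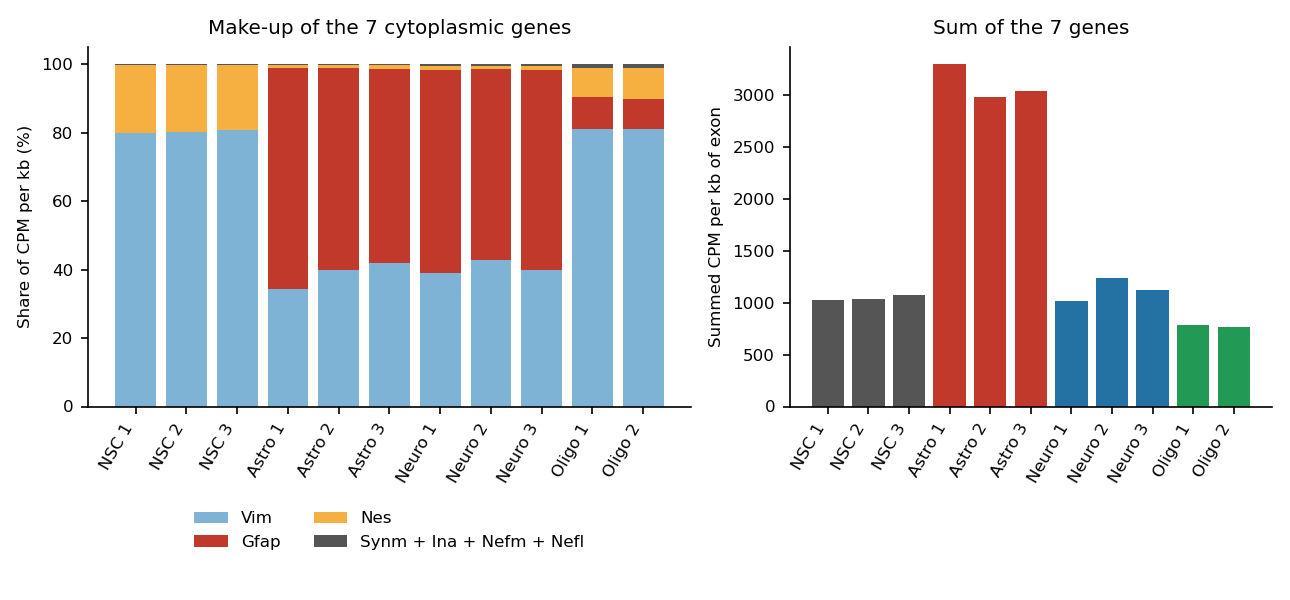
Left, share in percent of each of the cytoplasmic filament genes in their summed CPM per kilobase of exon, stacked for each library with Synm, Ina, Nefm and Nefl joined; right, the sum itself. Vim fills most of the NSC and Oligodendrocyte bars, Gfap with Vim nearly all of the Astrocyte and Neuron bars, and the Astrocyte sums are the tallest, at a mean of 3112.

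The Gfap to Vim ratio gives the same shift within each library. It was 0.00114, 0.00143 and 0.00100 in NSC, 3.48, 2.70 and 2.48 in Astrocyte, 2.81, 2.41 and 2.70 in Neuron, and 0.212 and 0.197 in Oligodendrocyte, as plain CPM ratios. Astrocyte and Neuron overlapped, and NSC and Oligodendrocyte were each apart. On the log2(CPM + 1) scale the ratio was 9.70 higher at day 4 (8 libraries) than at day 0 (3 libraries), higher in 8 of 8 (two-sided exact permutation test, p = 0.0121, the smallest p this design allows; 0.0121 after adjustment over 3 ratios). The Nefm to Nefl ratio differed by −0.47 on that scale with the same p. Its plain CPM ratios overlapped, at 5.64, 5.53 and 12 in NSC, 19.5, 2.40 and 0.917 in Astrocyte, 4.75, 4.00 and 2.25 in Neuron, and 1.06 and 1.54 in Oligodendrocyte. The counts behind them are low and uncertain, and nothing is read from this ratio.

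Lmna and Lmnb1 encode nuclear lamins. They went in opposite directions in Astrocyte and Oligodendrocyte, and both fell in Neuron, Lmnb1 far more than Lmna. Lmnb1 (on chromosome 18), a B-type lamin that stays attached to the inner nuclear membrane, was at 355, 369 and 385 CPM in NSC. At day 4 it was at 34.1, 31.2 and 34.7 CPM in Astrocyte, 48.7, 45.9 and 51.5 CPM in Neuron, and 46.2 and 49.01 CPM in Oligodendrocyte. All 8 day 4 libraries were far below NSC, and the Neuron range contained the Oligodendrocyte pair. Mean CPM was 11.1 times lower than NSC in Astrocyte, 7.59 times lower in Neuron and 7.76 times lower in Oligodendrocyte, with log2 differences of −3.43 (SE 0.064), −2.90 and −2.93 (SE 0.071; adjusted p = 2.64e-14, 9.96e-14 and 3.90e-13). Oligodendrocyte and Neuron differed by −0.03, with a 95% interval of −0.18 to 0.12 (adjusted p = 0.720). That call depended on scaling: median-of-ratios scaling gave −0.17 (adjusted p = 0.0325) and quantile normalization −0.21 (adjusted p = 0.0116).

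Lmna (chromosome 3, 88285070 to 88313878), which encodes lamins A and C, moved little but with small spread. Its values were 20.7, 21.6 and 23.1 CPM in NSC and 16.6, 16.3 and 16.7 CPM in Neuron. Astrocyte libraries were at 32.9, 32.3 and 32.9 CPM and Oligodendrocyte libraries at 30.8 and 31.8 CPM. Neuron lay below and the other 2 media above the NSC range. The log2 differences from NSC were 0.56 (SE 0.061, adjusted p = 1.05e-06) in Astrocyte, −0.38 (adjusted p = 5.70e-05) in Neuron and 0.50 (SE 0.068, adjusted p = 1.20e-05) in Oligodendrocyte. Astrocyte and Oligodendrocyte differed by −0.06, with an interval of −0.21 to 0.09 (adjusted p = 0.468). With T3 added to the Neuron medium the Lmna mean was 1.89 times higher, a log2 difference of 0.88 (adjusted p = 1.19e-07).

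The ratio of the pair separated all 4 groups. Lmna to Lmnb1, as a plain CPM ratio not corrected for length, was 0.0583, 0.0586 and 0.0601 in NSC and 0.341, 0.355 and 0.325 in Neuron. It was 0.665 and 0.649 in Oligodendrocyte and 0.964, 1.03 and 0.947 in Astrocyte. No library of 1 group fell within the range of another. On the log2(CPM + 1) scale the day 4 mean was −0.72 and the day 0 mean −4.02, a difference of 3.30 with all 8 day 4 libraries higher (two-sided exact permutation test, p = 0.0121, the smallest possible; adjusted 0.0121). The test takes all libraries as exchangeable, although the day 4 ratios differ between media.

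**Figure D4:**
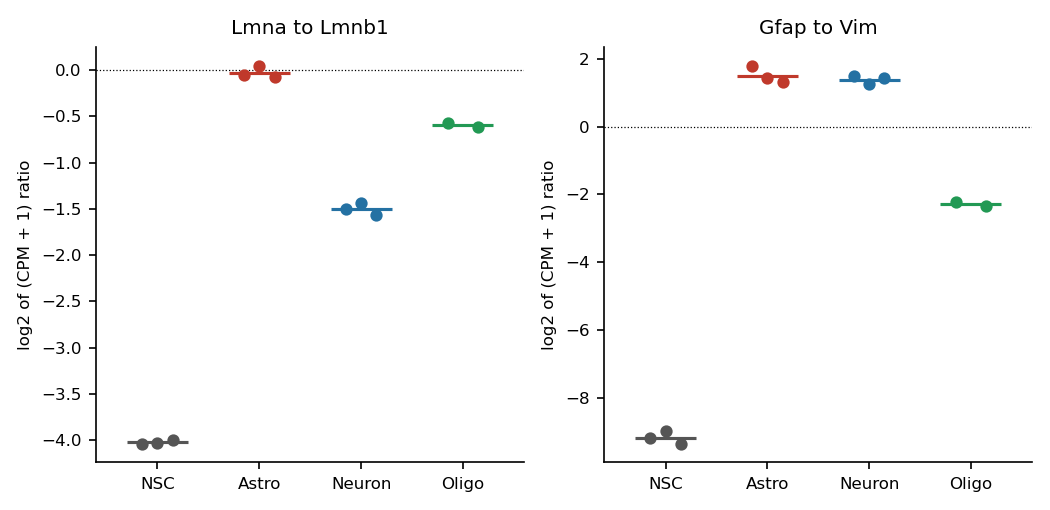
Within-library log2 ratios of CPM + 1, Lmna to Lmnb1 on the left and Gfap to Vim on the right, with 1 point per library and a bar at the group mean. For Lmna to Lmnb1 the groups stand at −4.02, −1.50, −0.59 and −0.03 in NSC, Neuron, Oligodendrocyte and Astrocyte.

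Counted together, all 7 tested genes were called against NSC in each medium: 5 higher and 2 lower in Astrocyte, 3 higher and 4 lower in Neuron, and 4 higher and 3 lower in Oligodendrocyte. Most genes of the table were called too, 83.6% in Astrocyte, 83.1% in Neuron and 80.2% in Oligodendrocyte, so the counts do not set these genes apart; the shares by direction are those given beside the neuronal markers. The libraries of the 2 groups did not overlap for 7 of 7 members in each, nor for 86.2%, 83.2% and 89.3% of all genes. The median log2 difference of the 7 genes was 0.56, −0.38 and 0.50, beside 0.15, 0.06 and 0.19 for all tested genes. Between media, 7 of 7 were called in Astrocyte against Neuron (5 higher, 2 lower), where 62.2% of all genes were called (40.3% higher, 22.0% lower). In Oligodendrocyte against Neuron, which differ by the added T3, 5 of 7 were called (4 higher, 1 lower). Of all genes, 67.5% were called there (43.9% higher, 23.6% lower). In Oligodendrocyte against Astrocyte 6 of 7 were called (4 higher, 2 lower), beside 52.2% of all genes (28.7% higher, 23.5% lower). Groups did not overlap for 7, 6 and 7 of the 7 members in these comparisons, in that order, and for 63.0%, 75.7% and 71.7% of all genes. In the T3 contrast Nes, Synm, Lmna and Vim were higher and Gfap lower, and Ina and Lmnb1 were not called. The comparisons with NSC share the same 3 NSC libraries.

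Other genes of the family and its partners were read from lists of related genes. Of 25 further genes listed with the family, 7 passed the filter. Tchp, among them, encodes a keratin-binding protein and not a filament subunit, and it is included in the counts and medians below. In all, 5 rose and 2 fell in Astrocyte against NSC. In Neuron 4 rose and 2 fell, with Tchp not called (−0.04, limma adjusted p = 0.67), and in Oligodendrocyte 5 rose and 2 fell. Over all tested genes 48.0% were higher and 35.6% lower in Astrocyte, 43.5% and 39.6% in Neuron, and 48.1% and 32.2% in Oligodendrocyte. Lmnb2, the other B-type lamin gene, fell with Lmnb1, from 49.7 ± 4.0 CPM (SD, n = 3) in NSC to 13.5, 11.9 and 14.515 CPM in Astrocyte, Neuron and Oligodendrocyte (log2 differences −1.80, −1.98 and −1.71). Iffo2, a filament family gene of the nucleus and cytoplasm, fell as well (−1.60, −1.84 and −1.63). Bfsp2, known from the beaded filaments of the lens, rose from 2.20 ± 0.54 CPM (SD, n = 3) to 14.497, 43.4 and 10.1 CPM, highest in Neuron (2.28, 3.81 and 1.81). Its partner Bfsp1 rose from 0.27 CPM to 0.87, 1.39 and 1.83 CPM (0.56, 0.91 and 1.16). Bfsp1 was below 1 CPM in NSC and passed the filter only through day 4 libraries, which favours a rise. Iffo1 rose by 0.25, 0.32 and 1.26, and Krt10, a keratin of the epidermis, by 0.58, 0.36 and 0.68 from 2.83 CPM. Tchp rose by 0.41 in Astrocyte and 0.30 in Oligodendrocyte. The median of the 7 was 0.41, 0.32 and 0.68, and several keratin genes were at 0 in all libraries of a group.

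Cytolinkers, the plakin proteins that tie filaments to actin, microtubules and junctions, are represented by 6 genes in the table, of which 3 passed the filter. These 3 were called higher in each medium, where 48.0%, 43.5% and 48.1% of all genes were. Plec, the gene of plectin, a binding partner of vimentin and GFAP, rose from 19.4 ± 1.6 CPM (SD, n = 3) to 114 ± 3.8 in Astrocyte, 56.6 ± 11 in Neuron and 84.7 ± 9.7 in Oligodendrocyte (n = 3, 3 and 2; log2 differences 2.50, 1.48 and 2.07). Dst rose by 1.10, 1.43 and 1.15, and Macf1 by 0.77, 0.73 and 0.78. Both varied widely within groups, Macf1 libraries overlapped between Neuron and NSC, and the summed cytolinker level of single Neuron libraries ran from 743 to 1477 CPM.

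Enzymes and chaperones that act on filaments changed in both directions. Of 10 tested, 3 rose and 5 fell in Astrocyte, 3 rose and 6 fell in Neuron, and 4 rose and 5 fell in Oligodendrocyte. Of all tested genes, 48.0% were higher and 35.6% lower in Astrocyte, 43.5% and 39.6% in Neuron, and 48.1% and 32.2% in Oligodendrocyte. Padi2, a peptidylarginine deiminase that citrullinates GFAP and vimentin, rose from 0.27 CPM in NSC to 236, 67.6 and 54.1 CPM in Astrocyte, Neuron and Oligodendrocyte (log2 differences 7.54, 5.76 and 5.44). Padi2 too passed the filter only through day 4 libraries. Cryab, the small heat shock protein αB-crystallin that binds glial filaments, rose from 12.2 CPM to 167, 47.3 and 93.7 CPM (3.66, 1.84 and 2.85). The mitotic kinases that phosphorylate vimentin and lamins during division were among those that fell: Aurkb (−4.58, −5.04 and −4.13), Cdk1 (−4.04, −4.65 and −4.65) and Plk1 (−5.14, −5.27 and −5.18). They act in the cell cycle as well, whose genes fell as given above. The kinase gene Rock2 fell too (−0.98, −0.92 and −1.01), and Cdk5, a kinase of neurofilaments, rose (0.78, 0.44 and 0.93).

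Nuclear envelope partners of the lamins also went both ways, with 5 of 12 higher and 5 lower in Astrocyte, 4 and 4 in Neuron, and 5 and 5 in Oligodendrocyte, beside the same shares of all genes. Lbr, the lamin B receptor, fell from 84.2 ± 1.4 CPM (SD, n = 3) to 10.3, 12.8 and 11.6 CPM (−2.92, −2.63 and −2.76). Tmpo, which encodes the LAP2 proteins, fell too (−2.49, −2.04 and −2.66), as did Banf1, the DNA-bridging factor BAF (−1.89, −1.99 and −1.66). Of the complex that joins the nucleus to the cytoskeleton, Sun2 rose from 25.7 CPM to 44.6, 54.3 and 77.3 CPM (0.77, 1.05 and 1.55). Syne3, the gene of nesprin-3, which binds plectin, rose from 0.187 CPM to 1.12, 1.07 and 3.90 CPM (0.81, 0.80 and 2.04). Syne3 was below 1 CPM in NSC and passed the filter only through day 4 libraries, which favours a rise. Other genes of the complex differed: Syne2 was lower in Oligodendrocyte (−1.28) and not called in Astrocyte or Neuron. Syne1 was called higher only in Astrocyte (0.60) and Neuron (0.95), and Sun1 only in Oligodendrocyte (0.20). Of the 5 genes that process prelamin A, 1 rose and 1 fell in Astrocyte, and 1 rose and 3 fell in Neuron. In Oligodendrocyte 3 rose and 1 fell, beside the same shares of all genes as above. Fnta, the shared subunit of farnesyltransferase, rose in each (0.84, 0.98 and 1.41), and Rce1 fell in each (−0.64, −0.96 and −0.58). The protease gene Zmpste24 was at −0.06, −0.25 and 0.00, called lower in Neuron (limma, adjusted p = 0.00080). Icmt was at −0.06, −0.47 and 0.26, called lower in Neuron and higher in Oligodendrocyte. Fntb was at −0.08, 0.12 and 0.34, called only in Oligodendrocyte. In Oligodendrocyte against Neuron all 5 were called higher, beside 43.9% of all tested genes called higher there.

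**Figure D5:**
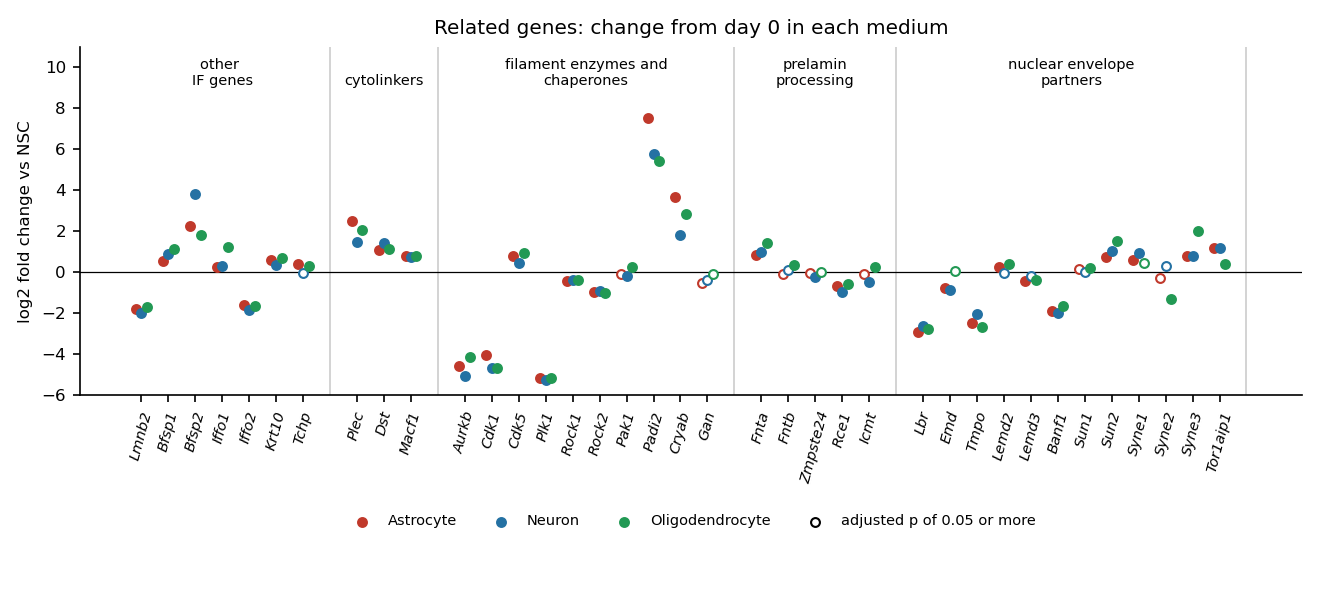
Log2 differences from NSC in Astrocyte, Neuron and Oligodendrocyte for each tested related gene, grouped by list, with open points where the adjusted p was 0.05 or more. Lmnb2, Lbr, Tmpo, Banf1 and the mitotic kinases lie below 0, and Padi2, Cryab, Plec and Bfsp2 above it.

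The genes whose levels across the 11 libraries were most like each member were ranked by Pearson correlation of log2(CPM + 1), among tested genes with a group mean of at least 10 CPM and a range of group means of at least 1. The libraries fall into 4 groups, so high values are easily reached and no test was made. For Gfap the nearest were Tox (0.999), Tifa (0.998) and Lamb2 (0.998), for Nes they were Nol10 (0.998), Nup50 (0.997) and Trmt61a (0.996), and for Lmnb1 they were Spry4 (0.998), Nop58 (0.998) and Itpripl1 (0.997). Synm was nearest to Pqlc3 (0.991), Kndc1 (0.989) and Stk32c (0.986), Ina to App (0.995), Parvb (0.994) and Zdhhc14 (0.993), and Lmna to Pter (0.992), Slc16a1 (0.991) and Sec14l2 (0.990). Vim had the least close neighbours of the tested members, Wnt5a (0.964), Plch1 (0.953) and Ppm1m (0.952). Nefm and Nefl, at their low counts, reached 0.922 with Apaf1 and 0.864 with C630004H02Rik.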

How the data were processed

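PolyA RNA of 11 cultures was sequenced (TruSeq Stranded mRNA, HiSeq sequencer, per the labels' protocols). The authors deposited 1 table of CPM (counts per 1000000 reads) per Ensembl gene with mm9 intervals; the submitters' processing notes name bcl2fastq 1.8.4, TopHat2 2.0.8, HTSeq 0.6.1, edgeR 3.2.4 under R 3.0.0, HOMER and build NCBIM37, without roles. For the annotation release, strand setting and filters, the sources used here give nothing. Listed genes sum to 75.0% to 80.2% of the total CPM. The step between low values was 0.0151 to 0.0203 CPM per read, and 99.9% to 100% of low values lay on it within rounding. Values have 2 decimals, which is coarse beside this step, and 24.0% to 61.6% of low values lay within 0.1 read of a whole number. The authors' values are CPM and not counts, and no count test was run. Values were tested as log2(CPM + 1) with limma 3.58.1 (R 4.3.3, trended variances, all 11 libraries in 1 fit, 6 comparisons) after the filter of 1 CPM in 2 libraries; p-values were adjusted by Benjamini-Hochberg over 13342 genes in each comparison and called at 0.05. Ratios were tested by exact permutation (scipy 1.17.1), which treats the 11 libraries as exchangeable although they fall into 4 groups. The code was tested on simulated data.

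The design text calls the samples biological replicates without naming separate animals or cultures, so p-values measure the spread between these samples, which may be technical. The members and gene lists were chosen with earlier results of these data known. All 9 members are named; from each related list, up to 5 called genes with the largest change from NSC, and every tested filament gene. Genes of the marker lists, Rock2, Cdk5, Sun1, Syne1, Syne2 and those named below the filter were chosen after their values were seen. Map2, Myrf and Syne3 were matched by Ensembl identifier, and 1 cytolinker was not matched. Promoter windows are RefSeq's (GRCm38.p6; 6 of 9 members matched), and exon lengths are from GENCODE M21; no coordinates were converted. Alternatives were another pseudocount, no filter, median-of-ratios scaling, quantile normalization, fits of 2 groups, a replicate block and leaving out each library.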

Additional observations from a re-analysis of the deposited data

Results flagged for a closer look

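Vim and Lmna were called in opposite directions against NSC in different media, and the direct comparison of those media was also called (limma, Benjamini-Hochberg). For Vim, Astrocyte exceeded Neuron by 1.40 on the log2 scale (adjusted p = 6.61e-08) and Oligodendrocyte differed from Astrocyte by −0.94 (adjusted p = 1.34e-05). For Lmna, Astrocyte exceeded Neuron by 0.94 (adjusted p = 2.61e-08) and Oligodendrocyte exceeded Neuron by 0.88 (adjusted p = 1.19e-07). Each of the 4 differences between media was called in all 19 alternatives. The Vim rise in Astrocyte against NSC was not: quantile normalization gave 0.00 (limma, adjusted p = 0.979).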

How the results depend on the processing

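The counts of called members stayed within 1.5 times in all 114 alternative values, between 5 and 8 against NSC and between 5 and 7 among media, and the 3 ratios kept their direction and call in all 39. Of 798 alternative values of tested members, 778 kept direction and call. Quantile normalization gave −0.26 for Synm and −0.021 for Ina in Neuron against NSC and Oligodendrocyte against Neuron, respectively, and made the Vim and Synm rises in Astrocyte 0.00 and 0.02. For Lmnb1 in Oligodendrocyte against Neuron, the sign turned at values near 0: it ranged from −0.072 without Oligodendrocyte replicate 2 to 0.0109 without Oligodendrocyte replicate 1, with 0.0098 without Neuron replicate 3, while median-of-ratios scaling gave −0.17 (adjusted p = 0.0325) and quantile normalization −0.21 (adjusted p = 0.0116). With a replicate block, Lmnb1 there was 0.0024 and Ina 0.24 (adjusted p = 0.0287, now called); the block left the calls over all genes at 10596 to 11146 against NSC and 6793 to 8894 among media. Deviations of same-numbered libraries from their group means correlated at −0.505 to 0.415 over 15 pairs. Those of differently numbered libraries ran from −0.536 to 0.541 over 30 pairs, the highest being NSC replicate 3 with Neuron replicate 2. With 2 or 3 libraries in a group, these values cannot show whether libraries of different groups share a culture or a batch. Scaling moved the median of all genes, in Oligodendrocyte against NSC from 0.19 to 0.00, and the share of calls that were higher from 59.9% to 49.9% (47.7% with quantiles); in Astrocyte against Neuron that share went from 64.7% to 52.8% (48.5%) and in Oligodendrocyte against Neuron from 65.1% to 52.5% (48.0%). At about 1 to 54 reads, Nefl and Nefm do not allow comparisons at this depth. The causes of these shifts were not tested.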
